A study of Mus musculus with 12 samples.

Results

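The interferon-induced GTPases followed here are the genes Iigp1, Igtp, Irgm1 and Irgm2 of the immunity-related GTPase family, Gbp2, Gbp3 and Gbp7 of the guanylate-binding protein family, and the myxovirus resistance genes Mx1 and Mx2. All probe sets that the platform annotation assigns to these 9 genes were taken, which gave 12 of the 45037 probe sets tested, and 0 of the 12 carried the symbol of a further gene. Iigp1, Gbp2 and Gbp7 had 2 probe sets each and the other 6 genes had 1. The rule uses gene family and annotation, but the 9 genes were chosen with earlier results of these arrays known.

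The cells were C3H10T1/2, a line from mouse embryos that behaves like mesenchymal progenitor cells, transfected with small nucleic acids that raise or block the cartilage microRNA miR-140. There were 4 kinds of transfection, each measured on 3 Affymetrix arrays of total RNA: siRNA-140, a mimic of miR-140, with siRNA-96 as its control, and an LNA oligonucleotide against miR-140 (anti-miR-140) with one against miR-449 (anti-miR-449) as its control. All 12 samples were of the same cell line, both controls concern another microRNA, no untransfected sample was analysed here, and the labels state neither dose nor time after transfection. The labels do not say whether the 3 replicates of a group were separate cultures, so every p-value measures the spread between these samples, which may be technical.

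Interferons are secreted proteins that cells release on sensing foreign nucleic acid or microbes, and they act through receptors, JAK kinases and STAT and IRF transcription factors on promoters with interferon response elements. Among the genes switched on are large GTPases that act inside the cell. The immunity-related GTPases and guanylate-binding proteins gather on the membranes around intracellular parasites and bacteria, and interferon gamma is their strong inducer, with type I interferon acting as well. Mx proteins block the replication of viruses and answer mainly to type I and type III interferons.

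Within the siRNA experiment, arrays did not lie together by label. The first principal component of the 6 siRNA arrays, computed over 44813 probe sets without the GTPases and without the interferon and marker genes listed further on, held 51.9% of the variance. The siRNA-140 arrays scored -23.8, -33.4 and 28.8 in order of replicate, and the siRNA-96 arrays -32.3, 31.3 and 29.4. Replicate 3 of siRNA-140 thus lay with siRNA-96 replicates 2 and 3, and siRNA-96 replicate 1 lay with siRNA-140 replicates 1 and 2. Results of that comparison are therefore given with all arrays as labelled, and again without these 2 arrays. That choice was made with earlier results of these arrays known, and the p-values of the reduced fit are no independent evidence. The siRNA-140 arrays kept all have negative scores and the siRNA-96 arrays kept all have positive ones. In the reduced fit, the label and the first component therefore cannot be told apart. Array medians were 3.95 to 4.02 on the log2 scale in the siRNA experiment and 4.32 to 4.38 in the anti-miR experiment, so levels were compared within an experiment only.

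Promoter sequence was at hand for 6 of the 9 genes, from RefSeq on the mouse build GRCm38.p6, as windows of 300 bases from 250 before to 50 after the annotated start. These fragments are shown because the genes read high and low on the same arrays within the siRNA experiment, though not in the anti-miR experiment, and because their promoters share a short motif, the core of the interferon-stimulated response element (GAAANNGAAA, or TTTCNNTTTC on the other strand). Capitals mark every match to the motif, and bases after the annotated start were left out.
Irgm1: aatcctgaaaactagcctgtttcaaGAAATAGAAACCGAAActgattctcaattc
Igtp: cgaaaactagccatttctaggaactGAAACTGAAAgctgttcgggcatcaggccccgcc
Irgm2: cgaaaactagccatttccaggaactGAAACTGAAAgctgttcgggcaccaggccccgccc
Gbp2: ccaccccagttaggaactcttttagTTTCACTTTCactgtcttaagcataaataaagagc
Gbp3: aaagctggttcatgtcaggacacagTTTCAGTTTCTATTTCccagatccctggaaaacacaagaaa
Gbp7: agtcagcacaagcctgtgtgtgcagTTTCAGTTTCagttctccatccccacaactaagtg

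Each fragment lies on the strand of its gene. The Irgm1 fragment is chr11:48871421-48871475 on the minus strand, the Igtp fragment chr11:58199497-58199555 and the Irgm2 fragment chr11:58214888-58214947, both on the plus strand. On the plus strand of another chromosome lie the fragments of Gbp2 (chr3:142620579-142620638), Gbp3 (chr3:142559974-142560039) and Gbp7 (chr3:142530258-142530317). The match began 59 bases before the start in Gbp2, 53 in Gbp7, 34 in Igtp and 64 in Irgm2. Irgm1 and Gbp3 held 2 overlapping matches each, beginning 30 and 24 bases before the start in Irgm1 and 45 and 39 in Gbp3. Gbp3 had a second window, without a match. In all, 6 of 6 genes and 6 of their 7 windows held the motif on either strand, while 3.43% of the 32817 mouse windows did. A second motif, TTCNNNGAA, which reads the same on both strands and is a site type of STAT dimers, lay in the windows of 3 of the 6 genes (Igtp, Irgm2 and Gbp7) and in 8.29% of all windows. The Igtp and Irgm2 fragments were alike in 57 of 59 bases, and their windows shared a run of 61 bases. A match describes letters in a window and does not show that a factor binds there. The promoters of Iigp1, Mx1 and Mx2 were not analysed here.

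The first comparison asked what a raised miR-140 changes, with siRNA-96 as the control. All 12 probe sets of the 9 GTPase genes had a lower mean with siRNA-140 than with siRNA-96, with log2 differences from -2.46 to -0.78, but none passed the test as the arrays are labelled. limma called 0 of the 12 at an adjusted p under 0.05, beside 0% of all 45037 probe sets, and the adjusted p was 0.88 for each of the 12. At an unadjusted p under 0.05 there were 6 of the 12, all lower, where 1.88% of all probe sets were lower at that level. Fitted without the anti-miR arrays, whose spread is narrower, 1 of the 12 (Mx1) had such a p, against 0.97% of all. The median log2 difference was -1.09 over the 12 probe sets and 0.02 over all probe sets tested. In these bulk samples, fewer cells that make a transcript and less of it per cell cannot be told apart.

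Iigp1, also called Irga6, encodes an effector GTPase that in mouse cells loads onto the vacuole of Toxoplasma gondii and helps to break it. Its probe set 1419043_a_at read 4.16, 3.15 and 6.93 in replicates 1 to 3 of siRNA-140, against 3.78, 8.56 and 9.28 in those of siRNA-96. The groups overlapped: siRNA-140 replicate 3 lay well above its own group's other arrays, and siRNA-96 replicate 1 lay with the low arrays of siRNA-140. The group means were 4.75 ± 1.96 in the siRNA-140 arrays, against 7.21 ± 2.99 in the siRNA-96 arrays (SD, n = 3 each), a log2 difference of -2.46 ± 1.13 (SE; 95% interval -4.90 to -0.02). Over the 6 siRNA arrays the probe set spanned 6.13 on the log2 scale, the widest range of all 45037 probe sets. The other Iigp1 probe set, 1419042_at, read 3.11, 3.12 and 5.36 in the siRNA-140 arrays, against 2.75, 6.78 and 6.94 in the siRNA-96 arrays. Its range ranked 12 among all probe sets, with the arrays in a similar order and a log2 difference of -1.63 ± 0.86 (interval -3.47 to 0.22).

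Igtp (Irgm3), Irgm1 and Irgm2 encode regulators that sit on the cell's own membranes and hold effectors such as Iigp1 in check there. Igtp read 5.58, 5.05 and 7.43 in replicates 1 to 3 of siRNA-140, against 5.19, 8.36 and 8.88 in those of siRNA-96. Irgm2 read 3.96, 4.20 and 6.18 in the siRNA-140 arrays, against 3.42, 7.26 and 7.17 in the siRNA-96 arrays. Both repeated the split seen for Iigp1, with siRNA-140 replicate 3 between the low and the high arrays, and their groups overlapped. The log2 difference was -1.46 ± 0.74 for Igtp (interval -3.06 to 0.14) and -1.17 ± 0.79 for Irgm2 (interval -2.88 to 0.54). Irgm1 read 6.84, 7.17 and 8.40 in the siRNA-140 arrays, against 7.06, 8.82 and 9.01 in the siRNA-96 arrays. It had the same split into low, middle and high arrays with smaller steps, and its log2 difference was -0.83 ± 0.43 (interval -1.76 to 0.10).

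The guanylate-binding proteins coat pathogen vacuoles and bacteria and open the way for their products to inflammasomes. Gbp3 read 3.48, 3.38 and 5.14 in replicates 1 to 3 of siRNA-140, against 2.97, 6.54 and 7.25 in those of siRNA-96. Its groups overlapped through the same pair of arrays, and its log2 difference was -1.59 ± 0.79 (interval -3.28 to 0.11). Gbp7, reported to help assemble the oxidase of phagocytes, read 3.15, 3.06 and 4.76 in the siRNA-140 arrays, against 3.09, 5.89 and 6.40 in the siRNA-96 arrays at probe set 1434380_at. At its other probe set, 1425156_at, it read 3.27, 3.27 and 3.87 in the siRNA-140 arrays, against 3.19, 4.39 and 5.18 in the siRNA-96 arrays. Both showed siRNA-96 replicates 2 and 3 on top, and the log2 differences were -1.47 ± 0.64 and -0.78 ± 0.34, with intervals of -2.85 to -0.09 and -1.52 to -0.05. Gbp2 read 3.14, 3.49 and 4.20 in the siRNA-140 arrays, against 3.48, 5.03 and 5.36 in the siRNA-96 arrays at probe set 1418240_at. The second Gbp2 probe set, 1435906_x_at, whose suffix marks probes that can also match other transcripts, read 3.72, 3.95 and 4.43 in the siRNA-140 arrays, against 3.54, 5.11 and 6.41 in the siRNA-96 arrays. The groups overlapped at both, with log2 differences of -1.01 ± 0.38 (interval -1.82 to -0.20) and -0.99 ± 0.48 (interval -2.01 to 0.04).

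Mx1 encodes a nuclear protein that blocks influenza viruses in mice, and Mx2 a cytoplasmic one active against other RNA viruses. RefSeq lists both as transcribed pseudogenes in its reference mouse strain, and the other 7 genes as protein coding. Mx1 read 2.38, 2.37 and 2.53 in replicates 1 to 3 of siRNA-140, against 2.61, 3.75 and 3.74 in those of siRNA-96. It was the 1 probe set of the 12 whose groups did not overlap, where 2.60% of all probe sets were lower in siRNA-140 and did not overlap, and its siRNA-140 replicate 3 stayed near replicates 1 and 2. The log2 difference was -0.94 ± 0.22 (interval -1.42 to -0.46). All siRNA values of Mx1 but those of siRNA-96 replicates 2 and 3 lay under the arrays' lower quartiles, 2.63 to 2.70. At such low levels a narrow spread says little. Mx2 read 4.25, 4.49 and 5.10 in the siRNA-140 arrays, against 4.51, 5.90 and 6.32 in the siRNA-96 arrays. Its groups overlapped, and its log2 difference was -0.96 ± 0.35 (interval -1.71 to -0.21).

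**Figure D1:**
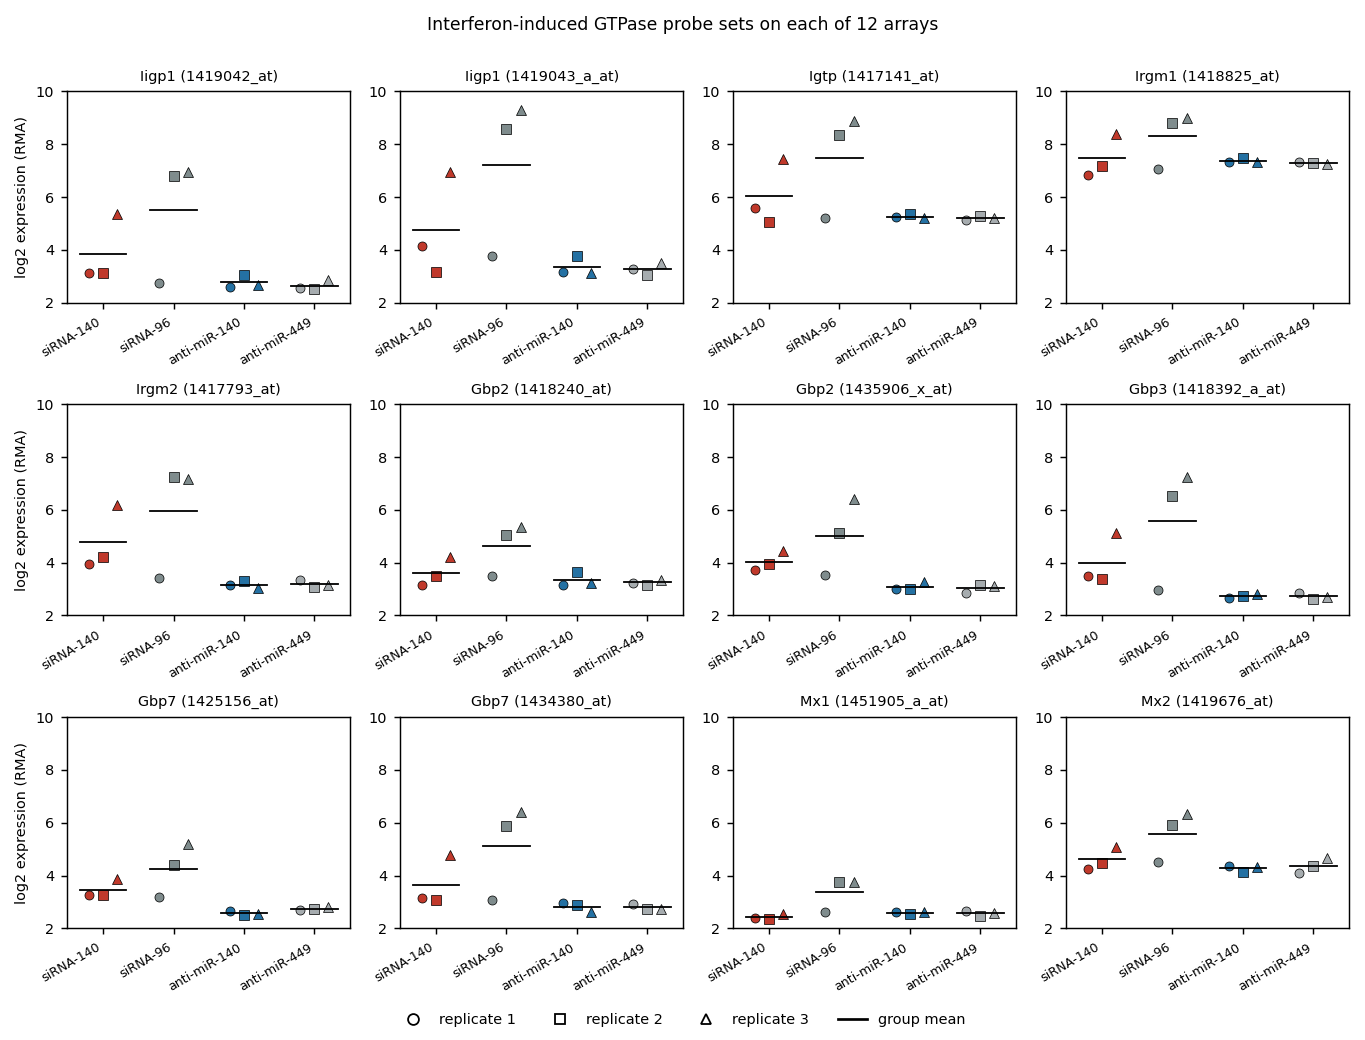
Log2 expression values (y axes, the same scale in every panel) of the 12 probe sets of the 9 GTPase genes on all 12 arrays. The groups siRNA-140, siRNA-96, anti-miR-140 and anti-miR-449 stand from left to right. Points are arrays, with marker shape by replicate, and horizontal bars are group means. In each panel siRNA-96 replicates 2 and 3 lie above the other siRNA arrays, and the anti-miR arrays span at most 0.70.

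A split of the siRNA arrays into low and high ones was shared across the 3 families. Replicates 2 and 3 of siRNA-96 read above siRNA-140 replicates 1 and 2 and siRNA-96 replicate 1 at 12 of the 12 probe sets, and 12.7% of all probe sets had that order. Replicate 3 of siRNA-140 lay between those 2 and those 3 arrays at 11 of the 12, against 2.70% of all probe sets. The exception was Mx1, at which siRNA-140 replicate 3 read 2.53 and siRNA-96 replicate 1 read 2.61. Replicate 3 of siRNA-96 read above its replicate 2 at 10 of the 12 (48.1% of all), the exceptions being Irgm2 and Mx1. These arrays share their source and their scaling, so the 12 probe sets are not independent observations of that order.

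Without replicate 3 of siRNA-140 and replicate 1 of siRNA-96, 12 of the 12 probe sets were lower with siRNA-140 and passed limma's test, where 3.85% of all probe sets were called lower and 5.13% higher. The median log2 difference over the 12 was -2.48, from -5.26 at Iigp1 to -1.37 at Mx1, with 2 arrays a group and the spread taken from 10 arrays. A fit of the 4 remaining siRNA arrays alone called 12 of the 12 lower as well, where 1.85% of all probe sets were called lower and 2.02% higher. At its probe set 1419043_a_at, Iigp1 averaged 3.66 in the 2 siRNA-140 arrays and 8.92 in the 2 siRNA-96 arrays, a log2 difference of -5.26 ± 0.31 (SE, limma adjusted p = 5.03e-07). Igtp differed by -3.31 ± 0.18 (adjusted p = 2.43e-07), Irgm2 by -3.13 ± 0.13 (adjusted p = 3.72e-08) and Irgm1 by -1.91 ± 0.13 (adjusted p = 1.31e-06). Among the guanylate-binding proteins, Gbp3 differed by -3.46 ± 0.18, Gbp7 by -3.04 ± 0.16 and -1.51 ± 0.19, and Gbp2 by -1.88 ± 0.17 and -1.93 ± 0.29, with adjusted p-values from 1.74e-07 to 0.000982. Mx1 differed by -1.37 ± 0.10 (adjusted p = 3.65e-06) and Mx2 by -1.74 ± 0.18 (adjusted p = 4.6e-05).

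That result rests on which arrays are kept. Leaving out siRNA-96 replicate 1 alone gave 8 of the 12 called lower, against 0.0799% of all probe sets, and the 4 that did not pass were Igtp, Irgm1, Irgm2 and Iigp1 at 1419043_a_at, with adjusted p-values of 0.0591 to 0.166. Leaving out any other single array gave 0 of the 12.

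**Figure D2:**
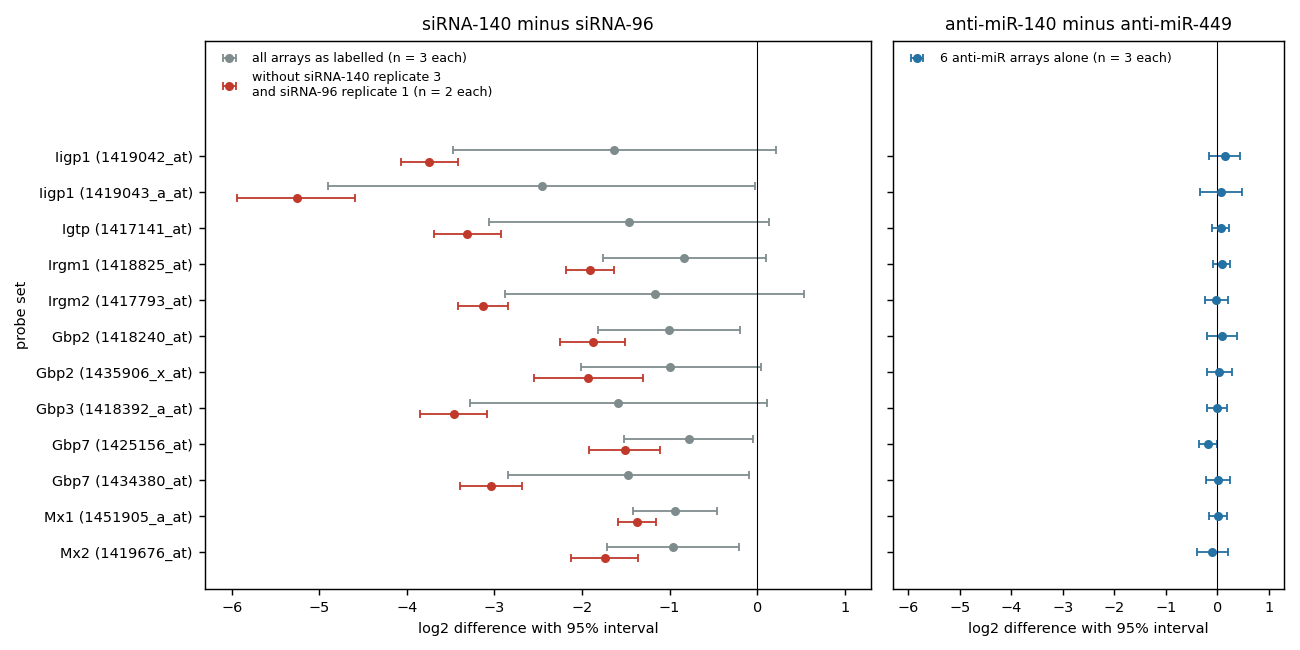
Log2 difference (x axis) of each of the 12 probe sets for siRNA-140 minus siRNA-96 with all arrays, the same without replicate 3 of siRNA-140 and replicate 1 of siRNA-96, and anti-miR-140 minus anti-miR-449, as points with 95% intervals from limma. All siRNA points lie below 0, from -2.46 to -0.78 with all arrays and from -5.26 to -1.37 without the 2 arrays, while the anti-miR points lie between -0.18 and 0.14.

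The second comparison asked what changes when endogenous miR-140 is blocked, with anti-miR-449 as the control. The GTPases differed little there, with 4 probe sets lower and 8 higher with anti-miR-140 and a median log2 difference of 0.03. limma called 0 of the 12, beside 0% of all probe sets, and 0 of the 12 had an unadjusted p under 0.05 in the fit of all 12 arrays, against 2.27% of all. That fit takes part of its spread from the siRNA arrays. Fitted without them, 1 of the 12 had an unadjusted p under 0.05 and was lower, against 2.55% of all. Over the 6 anti-miR arrays the 12 probe sets spanned 0.17 to 0.70 (median 0.32, against 0.31 over all probe sets). Over the 6 siRNA arrays they spanned 1.38 to 6.13 (median 3.10, against 0.43).

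Iigp1 at 1419043_a_at read 3.17, 3.76 and 3.13 in replicates 1 to 3 of anti-miR-140, against 3.27, 3.06 and 3.51 in those of anti-miR-449. At 1419042_at it read 2.61, 3.03 and 2.68 in the anti-miR-140 arrays, against 2.55, 2.52 and 2.84 in the anti-miR-449 arrays. Its groups overlapped at both, with the highest value in anti-miR-140 replicate 2. Igtp read 5.25, 5.34 and 5.20 in the anti-miR-140 arrays, against 5.14, 5.27 and 5.21 in the anti-miR-449 arrays. Irgm1 read 7.32, 7.47 and 7.31 in the anti-miR-140 arrays, against 7.31, 7.30 and 7.25 in the anti-miR-449 arrays. Both were again highest in anti-miR-140 replicate 2 while the groups overlapped. That array was the highest of the 6 at 5 of the 12 probe sets (both of Iigp1, Igtp, Irgm1 and Gbp2 at 1418240_at), where 15.8% of all probe sets were highest in it. Ifit1, an interferon-induced RNA-binding protein, read 4.97 in that array and 3.01 to 3.30 in the other 5 anti-miR arrays. Other interferon-linked genes went both ways. Ifit3, Rtp4, Bst2, B2m, Usp18, Irf7, Irf9, Stat2, Ddx58, Eif2ak2, Trim30a and Tor3a were also highest in that array. Oas1a, Oas2, Oasl2, Rsad2, Ifit2, Ifih1, Dhx58, Parp14 and Cxcl10 were not.

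Gbp7 at 1425156_at was the 1 probe set whose anti-miR groups did not overlap, at 2.65, 2.52 and 2.55 in the anti-miR-140 arrays, against 2.68, 2.75 and 2.82 in the anti-miR-449 arrays, and 4.34% of all probe sets were lower without overlap. Fitted on the 6 anti-miR arrays alone, its log2 difference was -0.18 ± 0.08 (limma unadjusted p = 0.0453, adjusted p = 0.974), and its other probe set differed by 0.01 ± 0.10. In that fit the differences of the remaining probe sets lay between -0.10 (Mx2) and 0.14 (Iigp1), and no 95% interval of the 12 reached beyond 0.48 in either direction. Group means were 3.17 ± 0.14 in the anti-miR-140 arrays, against 3.19 ± 0.12 in the anti-miR-449 arrays for Irgm2 (SD, n = 3 each). For Gbp3 they were 2.73 ± 0.08 in the anti-miR-140 arrays, against 2.73 ± 0.12 in the anti-miR-449 arrays. For Mx1 they were 2.59 ± 0.05 in the anti-miR-140 arrays, against 2.57 ± 0.09 in the anti-miR-449 arrays. Mx2 averaged 4.28 ± 0.11 in the anti-miR-140 arrays, against 4.38 ± 0.27 in the anti-miR-449 arrays. In all of these the difference was smaller than the SD of the anti-miR-449 arrays.

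Ordered by group mean within each experiment, siRNA-140 stood below siRNA-96 at 12 of the 12 probe sets and anti-miR-140 stood above anti-miR-449 at 8 of the 12. As labelled, neither step passed the test at any probe set. Levels are not ordered between the experiments, because their arrays have different quartiles and no source at hand states a joint normalization.

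A set of 8 further genes had the profile most like the GTPases over the 6 siRNA arrays. Profiles were scaled to mean 0 and SD 1 and compared with the mean profile of the 9 genes by root mean square distance, over 746 candidate genes that spanned at least 1 on the log2 scale. The closest were Mndal (distance 0.0971), Oas1a (0.0975), Ifit3 (0.111), Oasl2 (0.117), Ifit1 (0.119), Trim30a (0.121), Tor3a (0.127) and Ddx60 (0.13), beside a median of 0.671 over the candidates. Oas1a belongs to the enzymes that make the activator of RNase L, and Ifit1 and Ifit3 encode proteins that bind viral RNA. Oasl2 read 2.97, 3.22 and 6.18 in the siRNA-140 arrays, against 3.31, 7.48 and 8.19 in the siRNA-96 arrays, with siRNA-140 replicate 3 again in between. Among the GTPases themselves, Gbp7 (0.0443) and Gbp3 (0.0776) lay closest to the mean profile, and Gbp2 (0.293) and Mx1 (0.367) farthest from it.

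**Figure D3:**
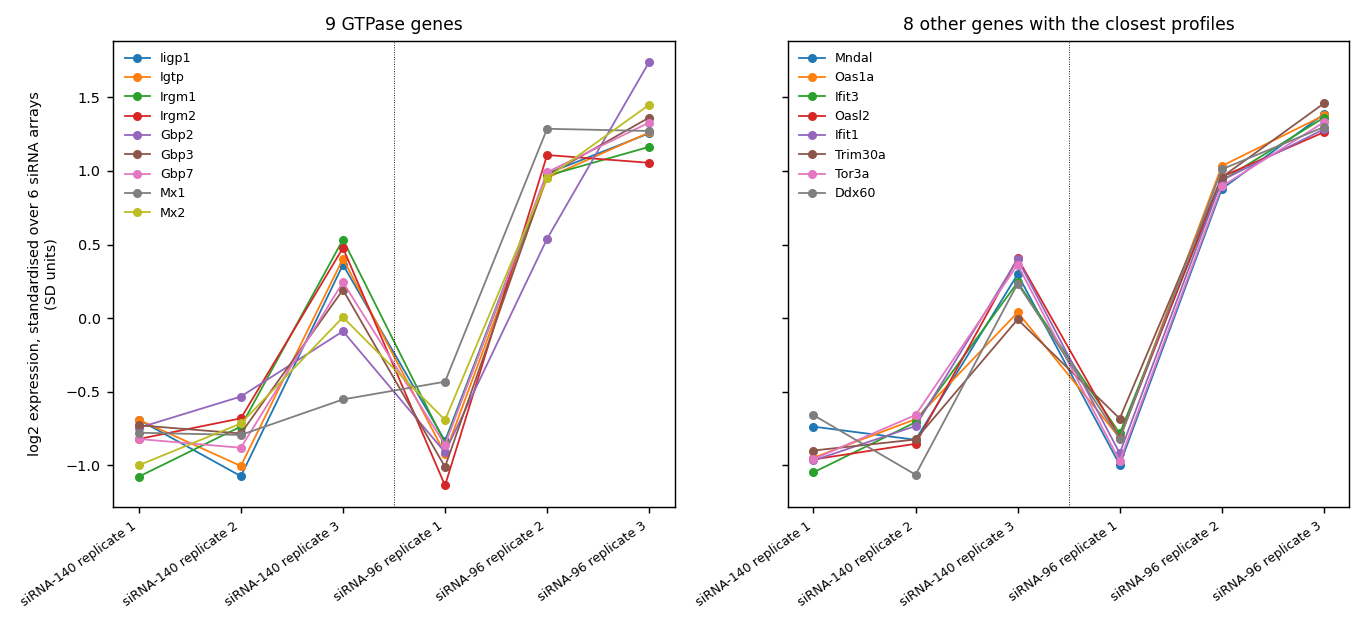
Standardised log2 profiles (y axis, mean 0 and SD 1 for each gene) of the 9 GTPase genes and of the 8 genes closest to their mean over the 6 siRNA arrays (x axis), siRNA-140 replicates left of siRNA-96 replicates. Most lines are low in siRNA-140 replicates 1 and 2 and siRNA-96 replicate 1, intermediate in siRNA-140 replicate 3 and high in siRNA-96 replicates 2 and 3, and Mx1 stays low in siRNA-140 replicate 3.

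Other genes of these families and of the interferon pathway were taken from lists, with 1 probe set a gene. As labelled, limma called 0 genes of any list in either comparison. The values that follow are from the siRNA comparison without replicate 3 of siRNA-140 and replicate 1 of siRNA-96, where 4.85% of all 18193 genes were called lower with siRNA-140 and 6.27% higher, at a median log2 difference of 0.04. On the same 1 probe set a gene, 9 of the 9 GTPase genes were called lower, with a median of -3.04.

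Of 7 other measured members of the immunity-related GTPase and guanylate-binding protein families, 4 were called lower and 0 higher, with a median log2 difference of -1.25 (-0.57 as labelled). Gm4951 differed by -2.79 ± 0.23, Gbp6 by -1.75 ± 0.17, Ifi47 by -1.64 ± 0.16 and Gbp2b by -1.25 ± 0.14. Gbp6 read 3.44, 3.70 and 4.26 in replicates 1 to 3 of siRNA-140, against 2.76, 5.23 and 5.41 in those of siRNA-96, with siRNA-140 replicate 3 again in between. The family members Gbp8, Irgq and Irgc1 did not pass, at -0.09, 0.01 and 0.16. Dynamin-type GTPases, which shape membranes and are not known as interferon targets, had 0 of 9 called lower and 2 called higher, Dnm1 (0.81 ± 0.10) and Mfn2 (0.38 ± 0.10), with a median of 0.17. Over all 33 probe sets of these genes, 0 were called lower and 3 higher, where 5.13% of all probe sets were called higher. Mfn2 passed at its chosen probe set only.

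Along the pathway, 0 of 9 interferon ligand genes passed in either direction (median -0.18, range -0.32 to 0.14), and 7 of the 9 were dim, with a mean below the median of all probe sets. Ifnb1, the type I interferon of fibroblasts, read 3.79, 3.95 and 3.74 in the siRNA-140 arrays, against 3.65, 4.01 and 4.37 in the siRNA-96 arrays. Without the 2 arrays it differed by -0.32 ± 0.20 (limma adjusted p = 0.416), and Ifng, the type II interferon, by -0.31 ± 0.15 (adjusted p = 0.27). Receptor genes also had 0 of 6 called, with differences of -0.28 to 0.24.

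Of 9 genes for kinases and transcription factors, 4 were called lower and 0 higher, with a median of -0.35. They were Irf7 (-2.76 ± 0.13), a factor that amplifies type I interferon, Irf9 (-1.78 ± 0.23) and Stat2 (-1.56 ± 0.18), partners in the complex that binds the response element shown above, and Irf1 (-0.62 ± 0.11). Of 7 inhibitors of the pathway, Usp18, a protease that also damps receptor signalling, was called lower, at 3.85, 4.67 and 8.01 in the siRNA-140 arrays, against 4.65, 8.92 and 9.30 in the siRNA-96 arrays. With all 6 arrays Usp18 differed by -2.11 ± 1.09 (adjusted p = 0.88), and without the 2 arrays by -4.85 ± 0.35. Over all 17 probe sets of the inhibitors, 1 more was called, another probe set of the phosphatase gene Ptpn11, higher by 0.70. Of 13 sensors of foreign nucleic acid, 5 were called lower and 0 higher, among them Dhx58 (-2.19), Ddx58 (-2.04) and Ifih1 (-1.44), RNA helicases of the RIG-I family. Over all 30 probe sets of the sensors, 11 were called lower and 0 higher, where 3.85% of all probe sets were called lower. Dhx58 also had a probe set at -0.71 that passed and one at 0.08 that did not. Of 18 other interferon targets, 14 were called lower and 0 higher with a median of -1.74 (-0.99 as labelled), led by Oasl2 (-4.74), Ifit1 (-4.01) and Ifit3 (-3.98). Over all 29 probe sets of these targets, 19 were called lower and 0 higher. Tap1 and Parp14 passed at their chosen probe sets only, and Cmpk2 only at a probe set that was not chosen (-1.49).

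**Figure D4:**
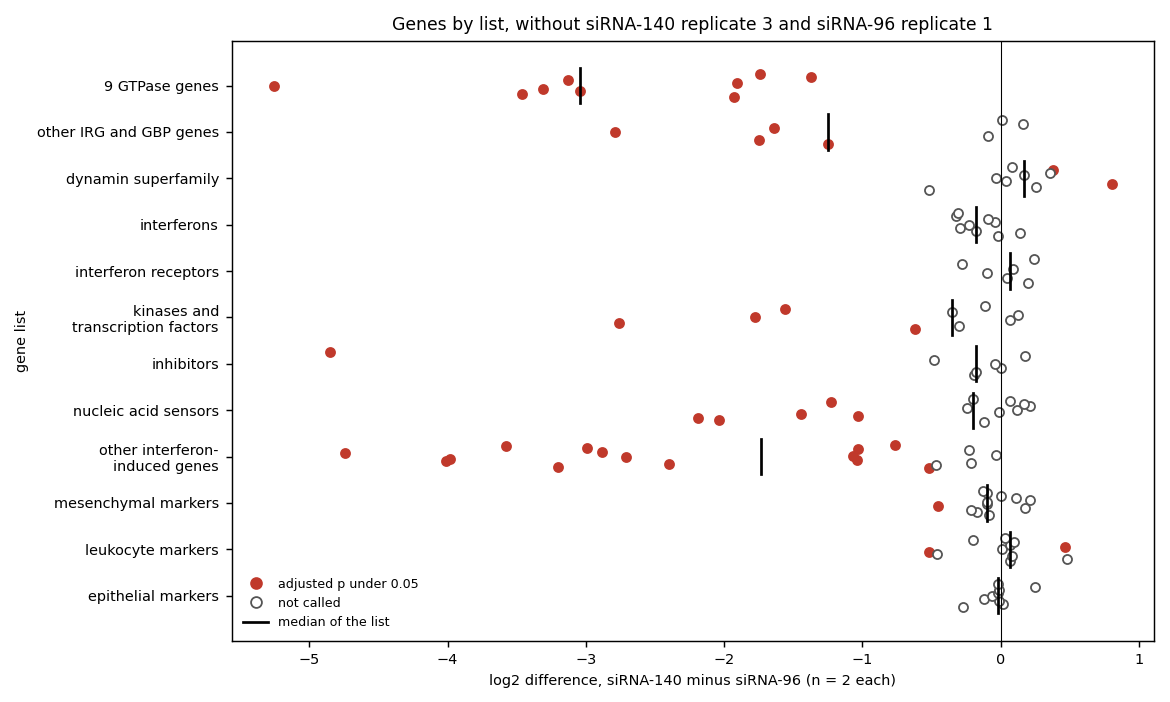
Log2 difference of siRNA-140 minus siRNA-96 without replicate 3 of siRNA-140 and replicate 1 of siRNA-96 (x axis) for each gene of each list (rows), with the 9 GTPase genes in the top row and list medians as vertical ticks. The GTPases lie between -5.26 and -1.37. The chosen probe sets of the ligands, receptors and markers of the 3 cell types lie between -0.52 and 0.48, and of these Csf1r, Itgam and Fn1 passed.

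Markers of cell types were read on the same arrays. Mesenchymal markers averaged 9.40 to 9.50 in the siRNA-140 arrays, against 9.33 to 9.49 in the siRNA-96 arrays, and 10 of their 12 genes were at or above the median of all probe sets. Leukocyte markers averaged 4.14 to 4.30 in the siRNA-140 arrays, against 4.22 to 4.24 in the siRNA-96 arrays, with 6 of 11 genes at or above that median, while their defining gene Ptprc read 2.01 to 2.15 in the siRNA-140 arrays, against 2.14 to 2.42 in the siRNA-96 arrays. In siRNA-140 replicate 3 and siRNA-96 replicates 2 and 3, where the GTPases read high, leukocyte markers averaged 4.14 to 4.24, and in the other 3 siRNA arrays 4.18 to 4.30. Mesenchymal markers averaged 9.48 to 9.50 in the 3 arrays with high GTPases and 9.33 to 9.43 in the other 3, without overlap, and their part in the result was not tested. Without the 2 arrays, 1 leukocyte marker was called lower (Csf1r, -0.52) and 1 higher (Itgam, 0.47), 1 mesenchymal marker was called lower (Fn1, -0.45 ± 0.11) and 0 of 9 epithelial markers passed. Those counts hold for the 1 probe set chosen per gene, and Csf1r did not pass at its other probe sets (0.25 and -0.08). Over all 28 probe sets of the mesenchymal genes, 4 were called lower (Fn1, Col1a1 and Col1a2) and 3 higher, all of Prrx1, with log2 differences from -0.75 at Fn1 to 0.90 at Prrx1. In the anti-miR experiment the leukocyte markers averaged 4.34 to 4.44 in the anti-miR-140 arrays, against 4.31 to 4.42 in the anti-miR-449 arrays.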

How the data were processed

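Total RNA of C3H10T1/2 cells was hybridised to Affymetrix arrays, per the labels. The deposited values are RMA expression values on the log2 scale, as the submitters' processing notes record without a version, and their range fits that scale. RMA subtracts background, equalises the arrays' distributions and combines probes into a probe set, which narrows differences of dim probe sets. Of the 12 GTPase probe sets, 7 had a mean under the median of all probe sets, 4.14. No source at hand states whether both experiments were normalized together.

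Symbols came from the platform annotation. Of 45101 probe sets, 64 array controls were left out. Each of the other 45037 was fitted with 4 group means over 12 arrays in limma 3.58.1 (R 4.3.3, lmFit and eBayes), and a call means an adjusted p under 0.05 by Benjamini-Hochberg over all 45037. Intervals are 95% intervals. The number of arrays limits the precision.

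The GTPases, gene lists, left-out arrays and tests were chosen with earlier results of these data known. All probe sets of the 9 genes are named. For list genes, the probe set with the highest mean stands for a gene, and up to 4 genes a list were named by the size of their difference. The 8 most alike genes were those with the smallest distance, predicted genes without a name passed over. A second fit left out siRNA-140 replicate 3 and siRNA-96 replicate 1. Further alternatives were the compared arrays alone, a replicate block, further quantile normalization, median centring, a filter on dim probe sets, a variance trend with robust estimation, array weights, 1 probe set per gene, an unadjusted p, and each array left out in turn. Motifs were searched in RefSeq promoter windows (GRCm38.p6) on both strands with Python 3.11.15.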

Additional observations from a re-analysis of the deposited data

How the results depend on the processing

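For siRNA-140 minus siRNA-96, the median log2 difference of the 12 probe sets stayed below 0 under every alternative run, from -2.48 without the 2 arrays (replicate 3 of siRNA-140 and replicate 1 of siRNA-96) to -0.70 with 1 array left out (-2.08 to -0.70 over those). No probe set reversed. The count called by limma was 0 of 12 as labelled, 6 at an unadjusted p, 12 without those 2 arrays in the fit of 10 arrays, 12 in the fit of 4, and 0 to 8 with 1 array left out, where only the fit without replicate 1 of siRNA-96 gave a count above 0. With the replicate block, limma called 0 of 12 in each comparison, with medians of -1.09 and 0.03 and a smallest adjusted p of 0.566 for the siRNA arrays. In that fit 12 of the 12 were lower with siRNA-140 at an unadjusted p under 0.05, where 1108 of all 45037 probe sets were. Deviations of same-numbered arrays correlated at 0.41, -0.24 and 0.44 in the siRNA groups and -0.01, 0.10 and -0.03 in the anti-miR groups. These values do not settle whether the replicate numbers pair the samples. In the anti-miR comparison the count was 0 throughout, and the median ranged from -0.03 to 0.07 with 1 array left out. Gbp3 there turned to 0.02 (further quantile normalization), 0.00333 (median centring) and 0.01 (array weights). With 1 array left out, signs also turned for Iigp1 at 1419043_a_at (-0.13 to 0.19), Irgm2 (-0.09 to 0.05), Gbp2 (-0.05 to 0.18 and -0.05 to 0.10), Gbp3 (-0.05 to 0.06), Gbp7 at 1434380_at (-0.06 to 0.11), Mx1 (-0.03 to 0.06) and Mx2 (-0.23 to 0.04). All these lie within the spread of the arrays. The filter on dim probe sets left 5 of the 12, which limits what is known of the dim ones.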
